A study of Mus musculus with 16 samples.

Results

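The 8 genes described here are Sdcbp2, Fndc10, Ntrk2, Uap1l1, Haus8, Ifi27l2b, Fabp3 and Ly6d, liver transcripts that were higher on a western diet in wild type mice and far less so in mice without SHP. They were chosen by name, through the gene symbols of the array platform, because of that pattern. The values that chose them are therefore given as descriptions without a test. They are 8 of 16593 genes with a symbol on the platform. All 8 were among the 9095 genes tested, and 12 of their 13 probes passed the detection filter. To pass it, a probe had to reach a detection p under 0.05 on 4 or more arrays. Sdcbp2, Ifi27l2b and Fabp3 passed it through the 4 western-fed wild type arrays alone, so a difference between groups was built into their passing. Ntrk2 also needed that group to pass. Its probe used was detected in 4 western-fed wild type, 2 western-fed knockout, 1 chow-fed wild type and 0 chow-fed knockout arrays.

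Liver RNA came from 16 male C57Bl/6Hsd mice, 1 Illumina BeadChip per mouse and 4 mice per group. The groups were SHP-/- on western diet, SHP-/- on chow, wild type on western diet and wild type on chow. Feeding began at 4 months of age and lasted 6 months, so every mouse was 10 months old, and all were fasted overnight. Each array held the RNA of an individual mouse. The labels give neither the design of the SHP allele nor the composition of the diets. Mean raw signal per array ran from 262 to 384. The share of probes detected ran from 43.6% to 51.1% and was highest in the 4 western-fed wild type arrays. The only Nr0b2 probe, for the gene that encodes SHP, was detected in 0 of 16 arrays, with a raw signal of 47.1 to 59.7, so it tested neither the knockout nor the labels. The summed linear intensity of hepatocyte markers was high in every group. It was 124908 to 135093 in western-fed knockouts and 123674 to 134934 in chow-fed knockouts. In wild types it was 115936 to 132859 on western diet and 129992 to 146617 on chow. The brightest markers weigh most in that sum, and the Alb probe averaged a log2 level of only 4.71, near background. The mean log2 level of the hepatocyte markers, Alb included, was lowest in western-fed wild types, at 12.33 ± 0.05 (SD, n = 4 per group). It was 12.50 ± 0.07 in western-fed knockouts, 12.50 ± 0.08 in chow-fed knockouts and 12.53 ± 0.06 in chow-fed wild types. Of 9 markers tested, 3 fell on western diet in wild types and 1 in knockouts (limma, adjusted p below 0.05). In bulk liver, fewer cells of a type and less RNA per cell cannot be told apart.

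SHP is an orphan nuclear receptor that has no DNA-binding domain of its own. It is induced by bile acids through FXR and represses genes by binding other receptors, LRH-1 among them, which is how it lowers bile acid synthesis. A long western diet loads mouse liver with fat and cholesterol and brings in macrophages. The 8 genes share no single pathway. Fabp3 carries fatty acids in the cytosol, and Ntrk2 and Ly6d sit at the cell surface. Sdcbp2 is a membrane-associated scaffold, Uap1l1 resembles an enzyme of nucleotide sugar synthesis, Haus8 belongs to the spindle machinery, Ifi27l2b is of an interferon-inducible family, and Fndc10 is a little studied membrane protein.

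Promoters are shown because the genes moved together between groups. RefSeq (GRCm38.p6) gave a start site window for 4 of the 8 genes. The 250 bases before each start follow, 5′ to 3′ on the gene's strand, with capitals marking every match, on either strand, to one of 9 short motifs.
Sdcbp2, chr2:151572373-151572622, plus strand: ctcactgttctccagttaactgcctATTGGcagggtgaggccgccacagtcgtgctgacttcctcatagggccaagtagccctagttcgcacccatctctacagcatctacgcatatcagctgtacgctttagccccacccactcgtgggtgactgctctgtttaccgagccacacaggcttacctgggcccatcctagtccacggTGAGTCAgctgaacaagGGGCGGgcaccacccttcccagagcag
Ntrk2, chr13:58806319-58806568, plus strand: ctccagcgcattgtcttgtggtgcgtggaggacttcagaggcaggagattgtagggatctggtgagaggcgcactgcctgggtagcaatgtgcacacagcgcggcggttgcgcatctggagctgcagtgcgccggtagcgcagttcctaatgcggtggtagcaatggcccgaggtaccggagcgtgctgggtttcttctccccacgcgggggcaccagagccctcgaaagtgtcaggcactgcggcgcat
Haus8, chr8:71272591-71272840, minus strand: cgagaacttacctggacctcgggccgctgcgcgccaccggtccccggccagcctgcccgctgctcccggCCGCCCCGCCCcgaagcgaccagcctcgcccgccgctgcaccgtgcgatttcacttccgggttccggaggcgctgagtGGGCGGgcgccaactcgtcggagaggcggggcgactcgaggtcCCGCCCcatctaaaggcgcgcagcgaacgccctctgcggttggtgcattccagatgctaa
Fabp3, chr4:130308488-130308737, plus strand: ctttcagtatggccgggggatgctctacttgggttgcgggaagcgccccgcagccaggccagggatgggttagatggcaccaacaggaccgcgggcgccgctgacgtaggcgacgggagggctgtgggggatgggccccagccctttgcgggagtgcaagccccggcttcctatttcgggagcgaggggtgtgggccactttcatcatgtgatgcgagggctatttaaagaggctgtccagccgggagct

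The AP-1 motif TGANTCA was found in the Sdcbp2 window, 44 bases before the start, and in 6.75% of 32851 mouse promoter windows of the same length. The GC box GGGCGG occurred in the Sdcbp2 and Haus8 windows and in 32.7% of all windows. The CCAAT box CCAAT occurred in the Sdcbp2 window and in 33.8% of all windows. None of the 4 windows held the nuclear receptor half-site AGGTCA, found in 14% of all windows, or the LRH-1 motif TCAAGGTCA, found in 0.387%. The PPAR direct repeat, that half-site repeated after 1 base of any kind (0.0335% of windows), the CRE TGACGTCA (1.55%), the antioxidant response element TGACNNNGC (10.2%) and the TATA box TATAAA (12.4%) were also without a match there. The LRH-1 motif contains the half-site and the direct repeat contains it as well. No motif was shared by all 4 windows. Their GC content was 58.0% for Sdcbp2, 62.8% for Ntrk2, 72.0% for Haus8 and 64.8% for Fabp3, against a median of 52.4% over all windows.

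Levels below are log2 intensities after background correction and quantile normalization, 1 value per mouse, in the order of the replicate numbers. A difference is a log2 difference with its standard error from 1 limma model of all 16 arrays. An intensity depends on the probe, so levels are not compared between genes. Values near 4.3 are at the floor that the normalization sets, and differences of genes near that floor depend on how background is treated. Lower bounds on folds are on this background-corrected scale. Without background correction, wild type diet differences of the 8 genes ran from 0.88 (Fabp3) to 3.34 (Ly6d).

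Fabp3 and Uap1l1 are the members with a place in metabolism. Fabp3 is the heart-type fatty acid binding protein, which takes up fatty acids in muscle. It read 4.24, 4.37, 4.24 and 4.20 in western-fed knockouts, 4.22, 4.21, 4.27 and 4.39 in chow-fed knockouts, 5.93, 5.95, 5.76 and 5.99 in western-fed wild types and 4.19, 4.30, 4.42 and 4.35 in chow-fed wild types. It was detected in 4 of 4 western-fed wild type arrays and in 0 of the 12 others. The 3 other groups lay together at background. The diet difference was -0.01 ± 0.11 in knockouts and 1.59 ± 0.11 in wild types, at least 2.21-fold in wild types, since their chow level was at background.

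Uap1l1, which resembles UDP-N-acetylhexosamine pyrophosphorylase, was detected in every array. Its levels were 7.69, 7.51, 6.84 and 7.55 in western-fed knockouts and 7.15, 7.17, 6.88 and 7.06 in chow-fed knockouts. In wild types they were 9.65, 9.70, 10.08 and 9.83 on western diet and 6.89, 7.0, 7.13 and 7.56 on chow. The knockout diets overlapped through western-fed replicate 3, the lowest of all western-fed mice, whereas the wild type diets were far apart. The diet difference was 0.33 ± 0.17 in knockouts and 2.67 ± 0.17 (6.36-fold) in wild types.

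Ntrk2 and Ly6d encode proteins of the cell surface. Ntrk2 is TrkB, the receptor tyrosine kinase for brain-derived neurotrophic factor. It stood at 4.70, 5.02, 4.75 and 4.57 in western-fed knockouts, 4.21, 4.27, 4.25 and 4.35 in chow-fed knockouts, 6.78, 7.44, 7.10 and 7.11 in western-fed wild types and 4.41, 4.44, 4.72 and 4.68 in chow-fed wild types. Western-fed knockouts lay above chow-fed knockouts in all mice, near the detection limit, with the probe detected in 2 of 4 western-fed and 0 of 4 chow-fed knockouts. The same probe was detected in 4 of 4 western-fed and 1 of 4 chow-fed wild types, so no fold is given for either diet difference. That difference was 0.49 ± 0.14 in knockouts and 2.55 ± 0.14 in wild types, and without background correction 0.35 in knockouts and 1.51 in wild types. The 3 Ntrk2 probes did not read alike. A second probe, annotated to another RefSeq transcript of the gene, was detected in 3 of 4 western-fed wild type arrays and differed there by only 0.26 from chow, against -0.13 in knockouts. The last probe, annotated to the same transcript as the one used, was detected in 0 of 16 arrays.

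Ly6d is a GPI-anchored protein of the Ly6 family, best known as a marker on lymphoid progenitors and keratinocytes. It had the largest diet difference of the 8. Its levels were 5.98, 6.31, 4.93 and 5.70 in western-fed knockouts, 4.84, 4.34, 4.37 and 4.37 in chow-fed knockouts, 8.86, 9.41, 10.05 and 8.48 in western-fed wild types and 4.34, 4.61, 4.81 and 4.46 in chow-fed wild types. By the probe used, no western-fed mouse overlapped a chow-fed mouse of its genotype, and western-fed wild types were all above western-fed knockouts. The probe was detected in all western-fed mice but in only 1 of 4 chow-fed knockouts and 1 of 4 chow-fed wild types, so no fold is given here either. The diet difference was 1.25 ± 0.29 in knockouts and 4.65 ± 0.29 in wild types, and without background correction 0.66 in knockouts and 3.34 in wild types. Its other probe gave 0.79 in knockouts and 4.33 in wild types. On that probe the knockout diets overlapped: western-fed replicate 3 read 4.66, undetected, and chow-fed replicate 1 read 5.01. Ly6d also varied most between mice of a group, with an SD of 0.59 in western-fed knockouts and 0.68 in western-fed wild types.

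Sdcbp2, or syntenin-2, is a PDZ-domain scaffold that binds membrane phosphoinositides. Its levels were 4.61, 4.53, 4.28 and 4.48 in western-fed knockouts, 4.29, 4.40, 4.37 and 4.34 in chow-fed knockouts, 7.64, 7.56, 8.28 and 8.23 in western-fed wild types and 4.33, 4.6, 4.39 and 4.31 in chow-fed wild types. All 3 of its probes were detected in 4 of 4 western-fed wild type arrays and in 0 of the other 12. Its wild type diet difference was 3.52 ± 0.15, at least 8.95-fold, and its other probes gave 2.17 and 1.19. In knockouts both diets were at background, so no fold is given there. Among all genes Sdcbp2 had the smallest p for the diet by genotype interaction, which is among the values that chose it.

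Haus8 is a subunit of the augmin complex, which recruits gamma-tubulin to spindle microtubules. Western-fed knockouts read 5.97, 5.99, 5.94 and 6.02 and chow-fed knockouts 5.55, 5.36, 5.81 and 5.27. Western-fed wild types read 7.77, 8.0, 8.27 and 8.18 and chow-fed wild types 5.72, 5.73, 5.6 and 5.24. In both genotypes the diets did not overlap, but the knockout step was small: 0.48 ± 0.15 in knockouts, against 2.48 ± 0.15 (5.56-fold) in wild types.

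Ifi27l2b belongs to the interferon alpha-inducible IFI27 family of small mitochondrial and nuclear envelope proteins. It read 4.50, 4.44, 4.44 and 4.35 in western-fed knockouts, 4.29, 4.34, 4.21 and 4.28 in chow-fed knockouts, 5.83, 5.88, 5.85 and 5.85 in western-fed wild types and 4.24, 4.25, 4.19 and 4.42 in chow-fed wild types. The western-fed wild types had the tightest spread of any member, an SD of 0.020 (n = 4), and were the only arrays in which the probe was detected. The wild type diet difference was 1.58 ± 0.10, at least 2.13-fold.

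Fndc10 encodes a membrane protein with a fibronectin type III domain. It read 5.63, 5.67, 5.35 and 5.54 in western-fed knockouts, 5.44, 5.58, 5.87 and 5.56 in chow-fed knockouts, 8.38, 7.81, 8.18 and 8.43 in western-fed wild types and 5.85, 5.55, 5.6 and 5.58 in chow-fed wild types. It was detected in every array, so its flat level in knockouts was measured above background. The diet difference was -0.07 ± 0.14 in knockouts and 2.55 ± 0.14 (5.87-fold) in wild types.

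**Figure D1:**
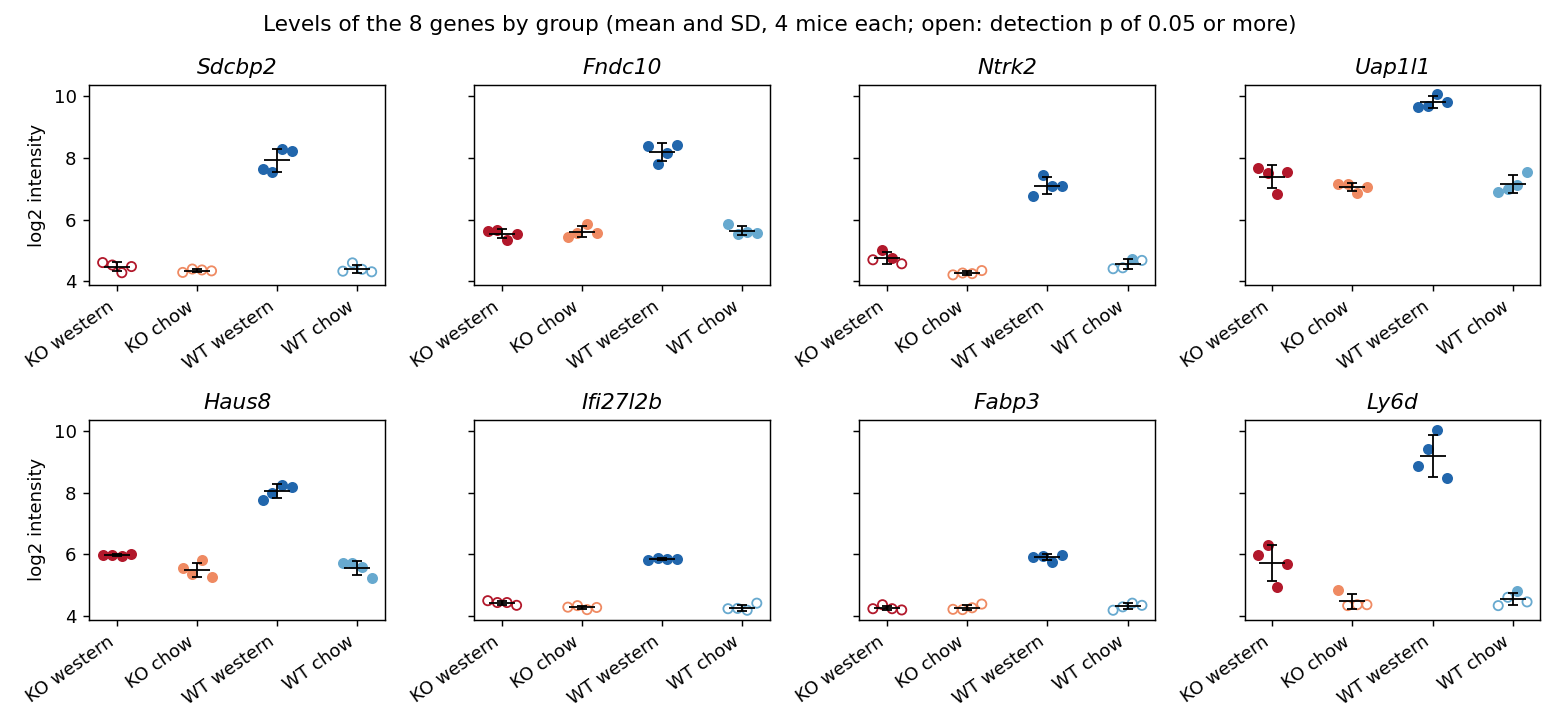
Log2 intensity of each of the 8 genes (vertical axes, 1 scale) by group (horizontal axes), 1 point per mouse, with the group mean and SD; open points mark a detection p of 0.05 or more. In every panel the 4 western-fed wild type points stand above all others, from 5.76 to 5.99 for Fabp3 and from 8.48 to 10.05 for Ly6d.

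Set side by side, the knockout kept between -2.63% (Fndc10) and 26.9% (Ly6d) of the wild type diet difference on the log2 scale. Ly6d was followed by Haus8 with 19.6%, Ntrk2 with 19.3%, Uap1l1 with 12.5%, Ifi27l2b with 9.70%, Sdcbp2 with 3.57% and Fabp3 with -0.557%. The shares of Ifi27l2b, Sdcbp2 and Fabp3 rest on knockout values at background, and those of Ntrk2 and Ly6d on chow levels at or near it. The order was the same with median scaling, array weights and the mean of detected probes. With the authors' values it changed: Haus8 kept most (23.6%), Ly6d 22.9% and Ntrk2 0.379%. It also changed without background correction, where Ntrk2 kept 23.3% and Ly6d 19.8%, and with normexp, where they kept 22.4% and 19.1%. The median diet difference of the 8 genes was 0.24 in knockouts and 2.55 in wild types, beside -0.01 in knockouts and -0.03 in wild types over all 9095 genes. At an adjusted p below 0.05 (limma, Benjamini-Hochberg over all genes), 3 of 8 were called higher on western diet in knockouts, where 4.52% of all genes were, and 8 of 8 in wild types, where 15.5% were. For the diet by genotype interaction, knockout minus wild type, 8 of 8 were called lower, where 4.76% of all genes were. By the simpler measure of groups that do not overlap, 4 of 8 were higher on western diet in knockouts and 8 of 8 in wild types. The 4 were Ntrk2 and Ly6d (by the probe used only), Haus8 and, at background, Ifi27l2b. Shares over all genes were 7.69% in knockouts and 14.8% in wild types. These are the contrasts that chose the genes, so nothing is read from the counts.

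The 3 knockout calls, Ntrk2, Haus8 and Ly6d, were the least settled values. Only 1 of the 8 was called without chow-fed knockout replicate 1, 2 or 4 or without western-fed knockout replicate 1 or 2, and that gene was Ly6d each time. Of 16 fits that each left out an array, Ly6d was called in 16, Ntrk2 in 9 and Haus8 in 5. Of 11 other ways of processing and fitting, Ly6d was called in 8, Ntrk2 in 7 and Haus8 in 5. Ly6d was lost without background correction, with normexp and with the authors' values.

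**Figure D2:**
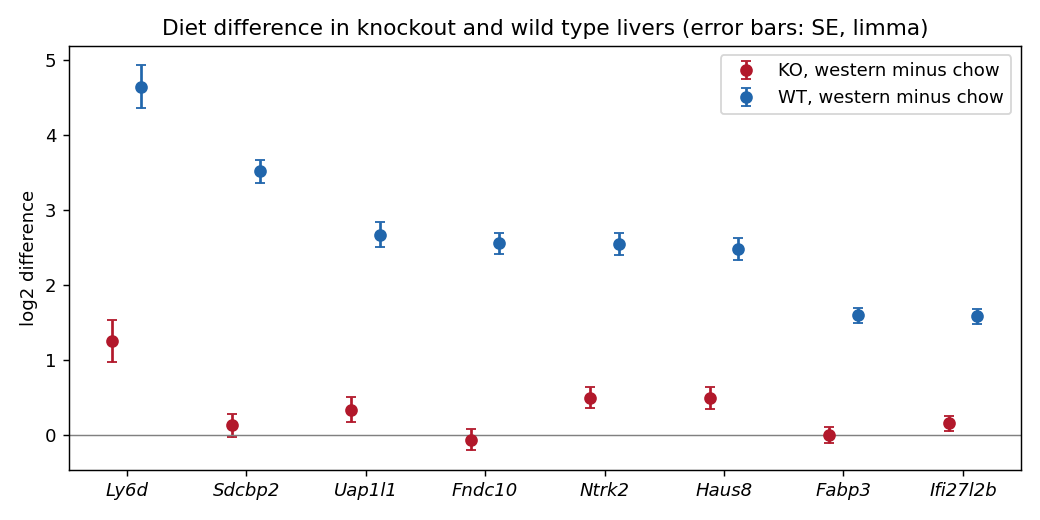
Log2 difference between western diet and chow (vertical axis) for each of the 8 genes (horizontal axis), ordered by the wild type value, in knockouts and in wild types; bars are standard errors. Wild type values run from 1.58 to 4.65 and knockout values from -0.07 to 1.25.

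Between genotypes the picture depended on the diet. On western diet the knockout was lower for all 8 genes, with no overlap between groups: the difference ran from -1.42 ± 0.10 for Ifi27l2b to -3.47 ± 0.29 for Ly6d, its median was -2.38, and 8 of 8 were called, beside 11.0% of all genes called lower and 11.3% lower without overlap. Western-fed knockouts were at background for Sdcbp2, Fabp3 and Ifi27l2b. By the probes used, on the background-corrected scale, Sdcbp2 was at least 9.17-fold, Fabp3 at least 2.26-fold and Ifi27l2b at least 2.18-fold lower there. The other Sdcbp2 probes gave smaller log2 differences, of -2.10 and -1.16. The western-fed contrast also defined the genes.

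On chow, the differences ran from -0.29 ± 0.14 (Ntrk2) to 0.01 ± 0.10 (Ifi27l2b), with a median of -0.07, and limma called 0 of 8, beside 0.836% of all genes. Sdcbp2, Ifi27l2b and Fabp3 were at background in both chow groups, and Ntrk2 and Ly6d were detected in at most 1 of 4 arrays of each. For these genes the chow difference says little about genotype. Fndc10, Uap1l1 and Haus8 were detected in every chow array and gave -0.03 ± 0.14, -0.08 ± 0.17 and -0.08 ± 0.15. Chow-fed Ntrk2 was the only one of the 8 without overlap, with a highest value of 4.35 in knockouts and a lowest of 4.41 in wild types, which 2.94% of all genes also showed in that direction. The chow arrays are part of the interaction that chose the genes, so these too are descriptions. The order of the 4 groups followed from this. Western-fed wild types came first for every gene. Western-fed knockouts were next, clear of both chow groups, for Haus8 and, by the probe used only, for Ly6d. For Fndc10, Uap1l1, Sdcbp2 and Fabp3 the other 3 groups overlapped one another. For Ntrk2 western-fed knockouts overlapped chow-fed wild types, and so they did for Ifi27l2b, whose probe was not detected in either group.

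Nr0b2 lies on chromosome 4, and 2 of the 8 genes do as well. Among the 556 tested genes of that chromosome, Fabp3 was number 65 by distance from Nr0b2 and Fndc10 number 294. The chow difference was -0.04 ± 0.11 for Fabp3 and -0.03 ± 0.14 for Fndc10. Fabp3 was at background in both chow groups, so its value does not show whether genotype mattered there. The remaining genes lie on chromosomes 2 (Sdcbp2 and Uap1l1), 8, 12, 13 and 15.

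Whether the 8 genes also moved together from mouse to mouse was asked with the group means removed, since deviations from a group mean are not the group differences that chose the genes. The choice was still not free of the deviations. The interaction p depends on their size, and by it the 8 ranked from 1 (Sdcbp2) to 13 (Ly6d) among all genes. Over 16 arrays and 28 pairs, Pearson's r ran from -0.56 to 0.57 with a median of 0.02, and 15 pairs were above 0. Permutation within groups, two-sided, gave an adjusted p below 0.05 for 0 of 28 pairs by Pearson's r and 0 of 28 by Spearman's rho, and an unadjusted p below 0.05 for 0 by Pearson's r and 3 by Spearman's rho. The highest r was that of Uap1l1 with Ly6d (r = 0.57, permutation p = 0.0535, adjusted p = 0.50; rho = 0.55, permutation p = 0.0462, adjusted p = 0.43), with r = 0.53 after leaving out the 2 arrays farthest from the median of Uap1l1. The highest rho was that of Ntrk2 with Fabp3 (rho = 0.59, permutation p = 0.0307, adjusted p = 0.43; r = 0.52, permutation p = 0.0892, adjusted p = 0.50), and r was 0.71 without 2 such arrays. The lowest r was that of Haus8 with Ifi27l2b (r = -0.56, permutation p = 0.0501, adjusted p = 0.50; rho = -0.57, permutation p = 0.0318, adjusted p = 0.43), and without 2 such arrays r was -0.47. Sdcbp2, Fabp3 and Ifi27l2b were at background in 12 of the 16 arrays, where their deviations hold little but noise, and a weak relation would not be detectable with 16 arrays. Among the western-fed wild types, replicate 3 had the highest level for 4 of the 8 genes and replicate 1 the lowest for 4, and no mouse led for all.

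**Figure D3:**
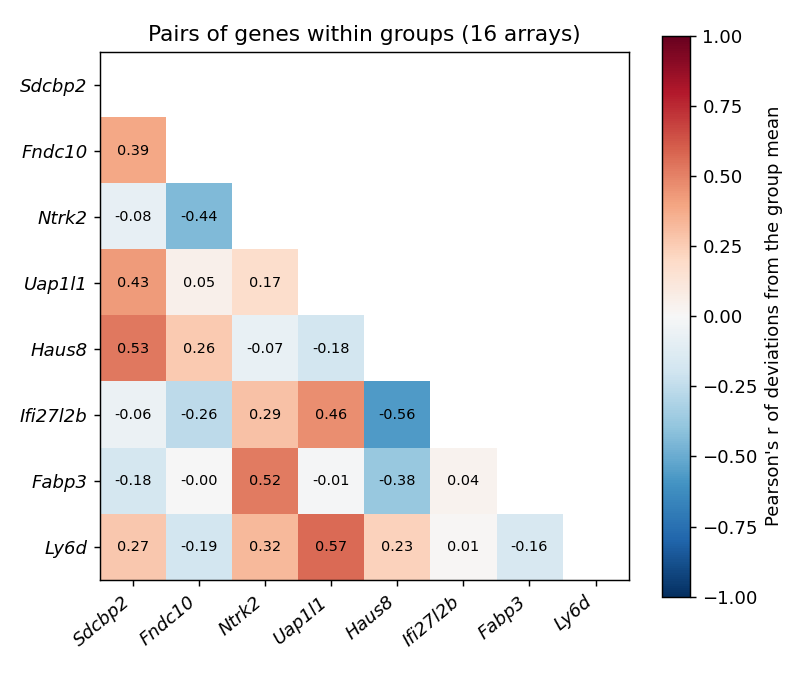
Pearson's r of deviations from the group mean over 16 arrays for each of the 28 pairs of genes, named on both axes; colour and number give r. The values scatter on both sides of 0, from -0.56 to 0.57.

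Markers of other liver cells moved with the genes between groups. Of 15 macrophage and Kupffer cell markers 11 were tested, and their summed linear intensity was 3170 to 4154 in western-fed knockouts, 2601 to 3217 in chow-fed knockouts, 8006 to 15322 in western-fed wild types and 2475 to 3729 in chow-fed wild types. Of these markers 3 rose on western diet in knockouts and 10 in wild types, and 8 were lower by the interaction (limma, adjusted over all genes). Only Cd5l of the 13 on the platform was never detected. All 10 stellate cell and fibroblast markers were tested, with a sum of 3022 to 3979 in western-fed knockouts, 3161 to 3797 in chow-fed knockouts, 4922 to 6531 in western-fed wild types and 2937 to 3683 in chow-fed wild types. For both lists western-fed wild types lay above every other group. Endothelial sums overlapped, at 2849 to 3590 in western-fed knockouts, 3050 to 3411 in chow-fed knockouts, 3045 to 3211 in western-fed wild types and 3066 to 3490 in chow-fed wild types, but the brightest marker weighs most in a sum. Their mean log2 level was 7.44 ± 0.08 in western-fed knockouts, 7.42 ± 0.06 in chow-fed knockouts, 7.72 ± 0.05 in western-fed wild types and 7.36 ± 0.09 in chow-fed wild types (SD, n = 4 each). Of 8 tested, 2 rose and 1 fell on western diet in wild types and 0 passed in knockouts, and 2 were lower by the interaction. These 2, named after their values were seen, were Lyve1 (-1.69 ± 0.28, limma adjusted p = 0.00115) and Vwf (-0.58 ± 0.16, limma adjusted p = 0.0364). The 1 that fell was Clec4g, the brightest tested (-0.36 ± 0.09 in wild types, limma adjusted p = 0.00775). Its interaction went the other way without passing (0.35 ± 0.13, limma adjusted p = 0.125). The part of these cells in the difference of the 8 genes was not tested.

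Lymphocyte markers, given that Ly6d is best known from lymphoid cells, had 5 of 10 tested, with Cd4, Cd8a and Ms4a1 never detected. Their sums were 117 to 157 in western-fed knockouts, 120 to 132 in chow-fed knockouts, 131 to 189 in western-fed wild types and 109 to 199 in chow-fed wild types. These ranges overlapped. Neutrophil markers, 4 of 6 tested, summed to 146 to 276 in western-fed knockouts, 124 to 177 in chow-fed knockouts, 218 to 839 in western-fed wild types and 118 to 217 in chow-fed wild types. Cholangiocyte markers, 4 of 7 tested and Krt19 never detected, summed to 112 to 133 in western-fed knockouts, 113 to 169 in chow-fed knockouts, 120 to 142 in western-fed wild types and 123 to 168 in chow-fed wild types. Nerve and Schwann cells, where Ntrk2 is at home, were represented by 1 of 8 markers and striated muscle, the main site of Fabp3, by 1 of 6. The muscle marker read 24.9 to 33.8 in western-fed knockouts, 22.8 to 26.1 in chow-fed knockouts, 20.1 to 26.3 in western-fed wild types and 21.1 to 52.6 in chow-fed wild types. Ckm and Actc1 of that list were never detected.

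Within groups, the 8 genes were set against the mean level of the macrophage, lipid droplet, stellate and hepatocyte lists, which makes 32 relations. By permutation, adjusted p was below 0.05 for 0 of 32 by either coefficient, and 2 had an unadjusted p below 0.05 by Pearson's r. Ly6d with macrophage markers had r = 0.71 (permutation p = 0.00866, adjusted p = 0.28) and rho = 0.80 (permutation p = 0.0022, adjusted p = 0.070), and r was 0.73 without the 2 arrays farthest from the Ly6d median. It passed (adjusted p = 0.0286 and 0.0260, by permutation) without western-fed wild type replicate 2 or 3. In no other fit that left out an array did it pass. Those 2 fits adjusted over fewer than 32 relations, because Sdcbp2, Ifi27l2b and Fabp3 then missed the detection filter. Fndc10 with the same markers had r = -0.66 (permutation p = 0.0241, adjusted p = 0.39) and rho = -0.56 (permutation p = 0.0449, adjusted p = 0.46), and r was -0.51 without 2 such arrays. That relation passed (r = -0.86, permutation, adjusted p = 0.0410) without western-fed knockout replicate 3.

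**Figure D4:**
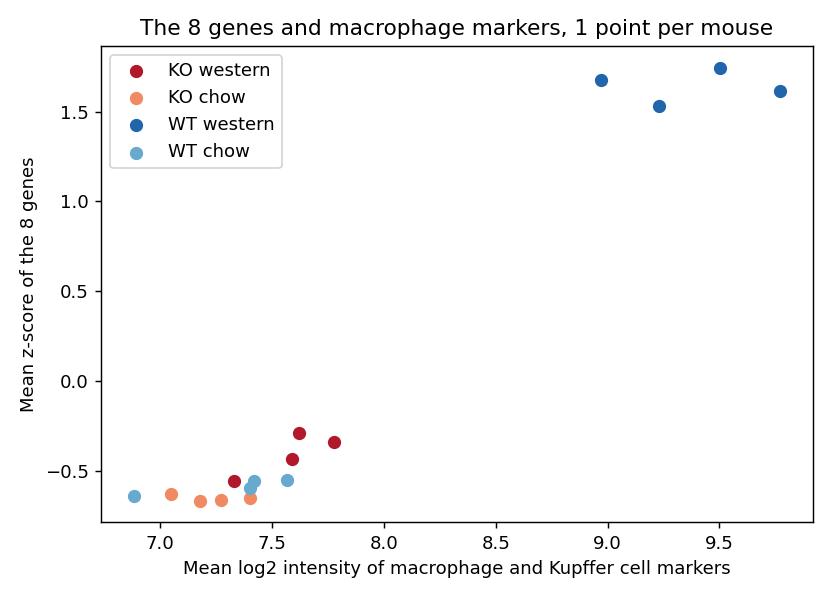
Mean z-score of the 8 genes (vertical axis) against the mean log2 intensity of 11 macrophage and Kupffer cell markers (horizontal axis), 1 point per mouse, coloured by group. Western-fed wild types stand apart on both axes, and the other 12 mice lie together at the lower left.

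Relatives and partners of the 8 genes were then followed through the same model, as lists set by function. Followed too were wider lists, of lipid droplet and PPARgamma genes (16 tested) and of SHP and bile acid regulators (14 tested). Over all 10 lists together, 89 of 157 genes were tested. On western diet 9 rose and 3 fell in knockouts and 31 rose and 17 fell in wild types, where 4.52% and 3.36% of all genes did in knockouts and 15.5% and 14.1% in wild types. The interaction called 4 higher and 10 lower, beside 2.29% and 4.76% of all genes. Part of these calls came from the wider lists. In wild types the lipid droplet list gave 8 of the rises and 3 of the falls, and the bile acid list 1 and 8. By the interaction the lipid droplet list gave 3 of the lower calls and the bile acid list 3 of the higher ones. Adjusted p values here are from limma over all genes.

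The fatty acid binding protein family could hardly be read besides Fabp3: of 7 relatives on the platform only the ileal bile acid binding protein Fabp6 was tested, and it did not pass in any comparison. The probe for Fabp1, an abundant protein of hepatocytes, was detected in 0 of 16 arrays, so a missing signal on this platform does not show a missing transcript. Of the FNDC family 2 of 9 on the platform were tested, Fndc3b and Fndc4, and 0 passed.

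Augmin and gamma-tubulin genes did not follow Haus8. Of 7 tested, 1 rose on western diet in knockouts and 1 fell in wild types. Haus1, another augmin subunit, was 0.40 ± 0.12 higher in western-fed than chow-fed knockouts (adjusted p = 0.0413), against -0.13 ± 0.12 in wild types (adjusted p = 0.439). Tubg1, gamma-tubulin, gave -0.07 ± 0.12 in knockouts (adjusted p = 0.793) and fell in wild types (-0.48 ± 0.12, adjusted p = 0.00647).

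In the hexosamine pathway, 9 genes were tested. Uap1, the enzyme that Uap1l1 resembles, went the other way: its diet difference was 0.19 ± 0.09 in knockouts (adjusted p = 0.209) and -0.33 ± 0.09 in wild types (adjusted p = 0.0109), with an interaction of 0.52 ± 0.13 (adjusted p = 0.0196). Nagk, which phosphorylates N-acetylglucosamine, gave 0.23 ± 0.14 in knockouts (adjusted p = 0.310) and rose in wild types (0.76 ± 0.14, adjusted p = 0.000330). Amdhd2, a deacetylase of the same sugar phosphate, gave 0.01 ± 0.12 in knockouts (adjusted p = 0.968) and rose 0.33 ± 0.12 in wild types (adjusted p = 0.0491). Gnpda1, a glucosamine phosphate deaminase, rose in knockouts (0.57 ± 0.13, adjusted p = 0.0110), with 0.10 ± 0.13 in wild types (adjusted p = 0.617).

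The list of syntenins and syndecans also held genes linked to them, such as Cd63, Pdcd6ip and Ext1. All 11 of the list were tested. In wild types 3 rose and 4 fell on western diet, while in knockouts 0 rose and 1 fell. Sdcbp, the closest relative of Sdcbp2, gave 0.18 ± 0.14 in knockouts (adjusted p = 0.478) and rose in wild types (0.77 ± 0.14, adjusted p = 0.000332). Cd63, a tetraspanin of late endosomes and exosomes that syntenins bind, gave 0.21 ± 0.20 in knockouts (adjusted p = 0.585) and rose 2.66 ± 0.20 in wild types (adjusted p = 2.35e-08), with an interaction of -2.46 ± 0.29 (adjusted p = 4.41e-05). Sdc3, a syndecan of nervous tissue, gave 0.14 ± 0.19 in knockouts (adjusted p = 0.707) and rose 1.11 ± 0.19 in wild types (adjusted p = 0.000213). Sdc2 fell in both genotypes, by 0.34 ± 0.08 in knockouts (adjusted p = 0.0170) and by 0.68 ± 0.08 in wild types (adjusted p = 6.75e-06).

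Of 17 type I interferon targets tested, 4 rose on western diet in knockouts and 12 in wild types, 0 fell in either, and 5 were lower by the interaction. Ifi27l2a, the neighbour in sequence of Ifi27l2b, rose 1.35 ± 0.29 in knockouts (adjusted p = 0.00871) and 2.97 ± 0.29 in wild types (adjusted p = 5.09e-07), with an interaction of -1.62 ± 0.41 (adjusted p = 0.0207). Oasl2, an oligoadenylate synthetase-like protein, rose 0.96 ± 0.26 in knockouts (adjusted p = 0.0281) and 2.28 ± 0.26 in wild types (adjusted p = 3.22e-06). Ifit3 rose 1.15 ± 0.20 in knockouts (adjusted p = 0.00204) and 1.80 ± 0.20 in wild types (adjusted p = 1.97e-06). Usp18, a negative regulator of interferon signalling, gave 0.52 ± 0.25 in knockouts (adjusted p = 0.217) and rose 1.73 ± 0.25 in wild types (adjusted p = 4.73e-05). Ifi27l2a, Oasl2 and Ifit3 thus passed in knockouts too. Ifi27l2b was at background in both knockout groups, so whether it responded there could not be read.

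In the Ly6 and uPAR family 2 of 9 tested rose in knockouts and 4 in wild types. Ly6e, an interferon-inducible member, rose 0.89 ± 0.22 in knockouts (adjusted p = 0.0196) and 1.69 ± 0.22 in wild types (adjusted p = 1.80e-05), and its interaction did not pass (-0.79 ± 0.32, adjusted p = 0.147). Ly6c1, found on endothelial cells and monocytes, gave 0.21 ± 0.22 in knockouts (adjusted p = 0.619) and rose 0.69 ± 0.22 in wild types (adjusted p = 0.0254). Lynx1, which binds nicotinic receptors, gave 0.25 ± 0.15 in knockouts (adjusted p = 0.341) and rose 0.50 ± 0.15 in wild types (adjusted p = 0.0191). Cd59b, a complement inhibitor, rose in knockouts (0.64 ± 0.19, adjusted p = 0.0423), with 0.16 ± 0.19 in wild types (adjusted p = 0.551). Of neurotrophins and their receptors 3 of 9 on the platform were tested. The low-affinity receptor Ngfr gave 0.22 ± 0.19 in knockouts (adjusted p = 0.530) and rose 0.53 ± 0.19 in wild types (adjusted p = 0.0449), and the sorting receptor Sort1 was lower in western-fed knockouts than in western-fed wild types (-1.33 ± 0.23, adjusted p = 0.000394). Bdnf, the ligand of TrkB, was not among the genes tested.

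Lipid droplet and PPARgamma genes, the fat-storing programme of the liver, had 1 of 16 rising and 1 falling in knockouts and 8 rising and 3 falling in wild types. The lipid droplet protein Cidea gave 1.00 ± 0.61 in knockouts (adjusted p = 0.338) and rose 4.72 ± 0.61 in wild types (adjusted p = 1.39e-05), and its relative Cidec gave 0.34 ± 0.35 in knockouts (adjusted p = 0.610) and rose 3.10 ± 0.35 in wild types (adjusted p = 2.86e-06). Lpl, the lipoprotein lipase, gave 0.34 ± 0.34 in knockouts (adjusted p = 0.601) and rose 3.18 ± 0.34 in wild types (adjusted p = 1.78e-06). Pparg itself rose in both, by 1.5 ± 0.19 in knockouts (adjusted p = 0.000194) and 1.16 ± 0.19 in wild types (adjusted p = 0.000121), and its interaction did not pass (0.33 ± 0.26, adjusted p = 0.514). Its level was nevertheless lower in knockouts than in wild types, by a difference of -1.52 ± 0.19 on western diet (adjusted p = 1.31e-05) and -1.85 ± 0.19 on chow (adjusted p = 5.91e-06). Of 14 bile acid regulators and SHP targets 0 rose and 1 fell in knockouts, and 1 rose and 8 fell in wild types. Cyp7b1, of the alternative route of bile acid synthesis, gave 0.04 ± 0.28 in knockouts (adjusted p = 0.955) and -2.39 ± 0.28 in wild types (adjusted p = 4.64e-06). Cyp8b1, which makes cholic acid, gave -0.20 ± 0.24 in knockouts (adjusted p = 0.662) and -1.34 ± 0.24 in wild types (adjusted p = 0.000329). Nr1i3, the xenobiotic receptor CAR, gave -0.07 ± 0.19 in knockouts (adjusted p = 0.867) and -1.13 ± 0.19 in wild types (adjusted p = 0.000214). Cyp7a1, which starts the classic route of that synthesis, gave 1.09 ± 0.38 in knockouts (adjusted p = 0.0890) and rose 2.12 ± 0.38 in wild types (adjusted p = 0.000401). It was higher in knockouts than in wild types, by 1.62 ± 0.38 on western diet (adjusted p = 0.00533) and 2.65 ± 0.38 on chow (adjusted p = 0.000557). Pparg and Cyp7a1 were the only genes of the 10 lists called on chow.

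The genes most like the 8 were those with the highest Pearson r between their levels and the mean z-score of the 8 over the 16 arrays. The 4 groups set most of this likeness, so r is a measure of it and not a test. The 10 were S100a11 (r = 0.98), Anxa2, Krt8, Ccdc120, Rhbdf1, Tax1bp3, Nrg1, Cd63, Myo9b and Mmp12 (r = 0.97). S100a11 and Anxa2, a calcium-binding pair that acts at membranes, kept part of their rise in knockouts: the diet difference was 0.95 ± 0.16 in knockouts and 3.76 ± 0.16 in wild types for S100a11, and 0.96 ± 0.18 in knockouts and 3.62 ± 0.18 in wild types for Anxa2. Krt8, a keratin of hepatocytes and bile duct cells, gave 0.23 ± 0.10 in knockouts and 1.59 ± 0.10 in wild types, and the macrophage elastase Mmp12 0.59 ± 0.27 in knockouts and 3.48 ± 0.27 in wild types. Nrg1, a ligand of ErbB receptors, gave 0.04 ± 0.13 in knockouts and 1.36 ± 0.13 in wild types. Member by member, Anxa2 (r = 0.99) and Anxa5 (r = 0.98) were nearest to Ly6d and Tax1bp3 (r = 0.99) to Ntrk2, and Krt8 (r = 0.98) came after Sdcbp2 as the nearest to Haus8, while for Sdcbp2, Fndc10, Uap1l1, Ifi27l2b and Fabp3 both nearest genes were other members.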

How the data were processed

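Per the file headers, the deposited non-normalized table holds a signal intensity per probe and array with a detection p-value beside it, which the authors exported from BeadStudio (version not stated, per the submitters' processing notes). Total RNA (1 µg per mouse) was labelled with biotin, per the labels' protocols. The authors' series values are an intensity too. They reach below 0 and have nearly equal quantiles in every array, and served as an alternative with a floor of 16.

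The raw signal of 25697 probes was processed with neqc (offset 16) in limma 3.58.1 (R 4.3.3). Probes detected (p under 0.05) on 4 or more arrays were kept (13196), named by the platform annotation (12421 of them), and the brightest probe of each gene was used (9095 genes). A gene is at background in a group when none of its probes was detected in its arrays, and its fold is then a lower bound against the lowest detected signal. One limma fit with a mean per group and an intensity trend covered all 16 arrays. Levels are log2 intensities computed from the deposited signal. Tests were two-sided, and a gene passed when its p, adjusted by Benjamini-Hochberg over all genes, was under 0.05. Fit and permutation were tested on simulated data. Relations within groups used 100000 permutations (Python 3.11.15, numpy 2.4.6).

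The members and all lists were chosen with earlier results of these data known. Named genes were the 8 members, Nr0b2, up to 4 genes per list with the largest passing change, the 10 genes most like the members, and the 2 most like each. Alternatives were other background corrections and scalings, the authors' values, other filters, the mean of probes, a robust prior, array weights, fewer arrays, leaving out single arrays and a block for the replicate number. Nothing says how mice were housed or processed in batches, and the number of arrays limits the precision. All per-sample columns were used.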

Additional observations from a re-analysis of the deposited data

Results flagged for a closer look

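Of 32 sets of 4 mice, 8 genes in 4 groups, 1 had a mouse that stood apart: in Ly6d on chow, knockout replicate 1 (4.84) lay so far above the other 3 (4.34 to 4.37) that the gap took a share of 0.937 of the range, above Dixon's 95% critical value for 4 samples. Chance gives about 1 in 20 such sets. That array was the only chow-fed knockout in which the Ly6d probe used was detected.

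Outside the 8 genes, 14 list genes had a diet difference that was unlike in the genotypes by the interaction term (knockout minus wild type, log2, limma adjusted p below 0.05). Lower ones were the interferon targets Ifi27l2a (-1.62), Oasl2 (-1.31), Oas2 (-1.21), Usp18 (-1.21) and Ifit2 (-0.98), the syndecan Sdc3 (-0.97) and the tetraspanin Cd63 (-2.46), and the lipid genes Cidea (-3.71), Lpl (-2.84) and Cidec (-2.76). Higher ones were Uap1 (0.52), Nr1i3 (1.06), Cyp8b1 (1.14) and Cyp7b1 (2.44). Of the 10 lower ones, all rose on western diet in wild types, and of the 4 higher ones, all fell there.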

How the results depend on the processing

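Wild type diet rise, western-fed genotype difference and interaction of the 8 genes kept their direction under every other setting tried, with log2 values from 0.81 to 5.16, -3.98 to -0.67 and -3.98 to -0.69. Of 1652 member differences under all alternatives 0 reversed a call and 85 moved by more than the spread between mice, 25 without background correction, 26 with normexp, 21 with the authors' values, 6 with median scaling and 7 with the mean of probes. The counts of 8 called in these 3 comparisons stayed at 8, except that leaving out an array gave 5 to 8: without any western-fed wild type array, Sdcbp2, Ifi27l2b and Fabp3 missed the detection filter, and with the genes of all 16 arrays kept (added after seeing the data) all 8 were called. The 3 called for diet in knockouts became 1 under quantile normalization without background correction, normexp, median scaling, the authors' values and no detection filter, and 1 to 3 on leaving out an array, also with the genes kept. On chow 0 were called in every alternative. List genes called by the interaction numbered 9 instead of 14 with the authors' values and with the robust prior, and 10 to 17 on leaving out an array; the cause was not tested. Relations of members with marker scores that passed went from 0 to 1 with median scaling (Ntrk2 with hepatocyte markers, r = -0.74, permutation adjusted p = 0.0397) and 0 to 1 on leaving out an array. Median scaling moved the median of all genes from -0.03 to 0.08 for diet in wild types and from 0.03 to -0.08 for western-fed knockout against wild type. Calls higher and lower then numbered 451 and 81 instead of 411 and 306 (diet in knockouts), 1774 and 535 instead of 1407 and 1286 (diet in wild types), 403 and 1334 instead of 802 and 997 (knockout on western diet) and 22 and 39 instead of 40 and 36 (on chow). On chow 48 genes passed with the authors' values, 124 with array weights and 49 without chow-fed wild type replicate 3, instead of 76. For diet in knockouts 362 passed without chow-fed knockout replicate 2, instead of 717. The replicate numbers are shared by the groups. Deviations of same-numbered arrays correlated weakly, from -0.17 to 0.19, with 6 of 24 pairs above 0.1. Of 16 arrays, 7 correlated best with an array of their own number, a count that was not compared with chance. With the numbers as a replicate block, 8, 2 (diet in knockouts), 8, 8 and 0 members were called. Low signal limits Sdcbp2, Ifi27l2b, Fabp3 and Ntrk2 outside western-fed wild types, and Ly6d on chow.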
